A study of Populus trichocarpa with 12 samples.

Results

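The regions described here were higher in acetylation of histone H3 at lysine 9 (H3K9ac) after 5 days without water than before, in the stem differentiating xylem of Populus trichocarpa (black cottonwood), and had no listed counterpart after 7 days. They were selected from the authors' deposited table of differential regions for day 5 against day 0. A region was kept where it shared no base with any region of the day 7 table and where both day 5 libraries held more normalised reads than both day 0 libraries. Its mean at day 5 also had to be at least 1.2 times that at day 0, its length under 3000 bp, and its enrichment over input DNA at least 0.5. Of the 10605 regions listed at day 5, 1453 (13.7%) met all of these conditions. The libraries whose values chose the regions are the same that give their gain, so sizes of gain are a description and carry no test.

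Plants were 3 months old and grown in a greenhouse, and stem differentiating xylem was harvested from fully watered plants (day 0), from plants unwatered for 5 days (day 5, mild drought) and from plants unwatered for 7 days (day 7, severe drought). Soil water content was 74%, 33% and 29% on these days, and xylem water content 80.6%, 75.3% and 74.3%. On each day chromatin precipitated with an H3K9ac antibody was sequenced in 2 libraries, and input DNA in another 2. The labels do not say whether replicates were separate plants, so their spread may be technical, and since day 0 is the only watered group, drought cannot be told apart from time or handling.

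Histone acetyltransferases such as GCN5 place acetyl groups on the tail of histone H3, and histone deacetylases remove them. In plants, H3K9ac sits mainly on the nucleosomes just after the transcription start of active genes, and its level tends to follow transcription. Differentiating xylem is where cambial derivatives expand and lay down the secondary walls of wood, and in this species the abscisic acid response factor AREB1 is known to bring an ADA2b-GCN5 acetyltransferase complex to drought-responsive genes. Coordinates below are 1-based and in the build of the deposited files. Genes were not assigned to the regions.

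A pair of properties of the deposited tables touches several results. The first concerns chromosome 14. In 563 regions of identical coordinates in both tables on other chromosomes, the day 0 input of the day 5 table stood between 0.03 and 0.09 above that of the day 7 table on the log2 scale. In the 30 such regions of chromosome 14 it ran from -0.65 to 1.36, with a median of 0.73, although the immunoprecipitated day 0 reads were identical. Over all listed regions of chromosome 14, the median day 0 input was 253 normalised reads per kb in the day 5 table and 158 in the day 7 table, against 159 and 153 on chromosome 1. Enrichment and input values are therefore given without the 74 selected regions of chromosome 14, unless stated otherwise. The second property, a dependence of the listing on read level, is described with the regions of 1000 bp.

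In the 10 largest gains the mean at day 5 was 2.08 to 2.39 times that at day 0, and in all 10 both day 5 libraries lay well above both day 0 libraries. The largest ratio belonged to chr14:8089601-8090900, with 283 and 329 normalised reads in the day 5 libraries and 127 and 129 in the day 0 libraries. Its means were 306 ± 32.9 and 128 ± 1.92 (SD, n = 2 each), a log2 difference of 1.26, with a limma SE of 0.11. In watered plants this 1300 bp stretch held among the fewest normalised reads per kb of the selected regions, and it reached 235 normalised reads per kb at day 5.

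The region chr6:3852101-3854100 held 672 and 607 normalised reads at day 5 and 284 and 261 at day 0. At 2.35-fold (log2 1.23, SE 0.08) it was the longest of the 5 largest gains, at 2000 bp, and held the most reads of the 10 at day 5. On chromosome 11, chr11:12956001-12957100 held 251 and 244 normalised reads at day 5 against 105 and 117 at day 0. Its day 0 mean of 111 ± 8.32 (SD, n = 2) was the lowest of all 10605 listed regions, and its ratio was 2.23.

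On chromosome 18, chr18:1079101-1080300 held 250 and 319 normalised reads at day 5 and 114 and 146 at day 0. The replicates of both days spread more here than in the regions above, and the SE of its log2 difference of 1.13 was 0.16. On chromosome 1, chr1:29984001-29985500 held 295 and 319 normalised reads at day 5 and 145 and 136 at day 0 (2.18-fold). A second gain on that chromosome, chr1:13948301-13950300, held 557 and 524 at day 5 and 262 and 243 at day 0 (2.14-fold). Both of these had close replicates, and their lower day 5 library was 2.03 and 2.00 times the higher day 0 library.

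The remaining large gains lay on chromosomes 8, 12 and 15. In chr12:14372501-14373700 the libraries held 312 and 260 normalised reads at day 5 and 141 and 122 at day 0, and in chr12:593501-595300 they held 369 and 347 against 158 and 180. In chr15:9917801-9919700, 452 and 439 stood against 172 and 243, and the day 0 libraries spread more than those of day 5. In chr8:8797801-8799200, 308 and 280 stood against 159 and 124. None of these groups overlapped, as the selection required.

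**Figure D1:**
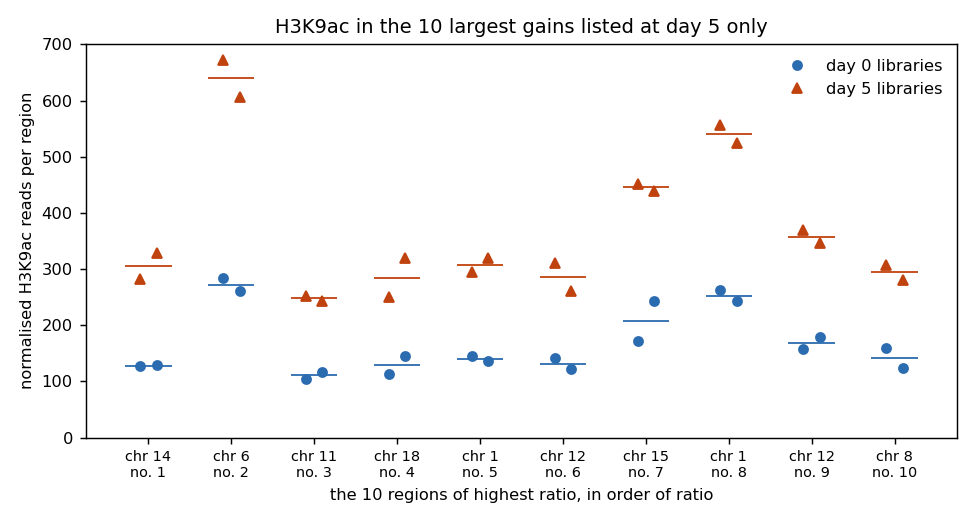
Normalised H3K9ac reads per region (y axis) of each library in the 10 regions of highest ratio of day 5 to day 0 (x axis, in order of ratio). Circles are day 0 libraries, triangles day 5 libraries and bars their means (n = 2 each), and every triangle lies above both circles of its region.

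Gains of this size were exceptional. Over the 1453 regions the ratio had a median of 1.38 (log2 0.47) and an interquartile range of 1.29 to 1.47. It was under 1.5 in 1193 regions (82.1%) and at least 2 in 12, and reached 2.39. The median limma SE of a region's log2 difference was 0.09, so the typical gain was several times its error, but the choice of regions made it so. The median region held 332 normalised reads at day 5 and 244 at day 0.

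In the authors' deposited table, 1415 of the 1453 regions (97.4%) had an adjusted p under 0.05. Of all 10605 regions listed at day 5, 43.3% passed that threshold and were gained. In a limma fit over all listed regions, 1452 of the 1453 (99.9%) had an adjusted p under 0.05, and 39.5% of all listed regions were called gained in it. The selection and both tests read the same 4 libraries, so nothing is read from these counts. All 38 regions that missed the threshold in the authors' deposited table were called by limma.

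The replicates contributed unevenly. Day 5 replicate 2, the shallower library, had the higher normalised value in most regions: replicate 1 was above it in 538 of 1453 (37.0%), against 49.1% over all listed regions. The imbalance was not particular to these regions. Among day 5 regions that met the other conditions but shared a base with a day 7 region, replicate 1 was above in 630 of 1825 (34.5%). At day 0, replicate 1 was the higher in 592 (40.7%), against 46.4% over all listed regions. The lower day 5 library was at least 1.2 times the higher day 0 library in 1077 regions (74.1%), with a median of 1.26 times. The narrowest separation was at chr2:742701-743900, where 646 and 421 normalised reads at day 5 stood against 414 and 384 at day 0.

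Most of the regions held fewer H3K9ac reads per kb before drought than the median listed region. They held a median of 206 normalised reads per kb at day 0 (interquartile range 173 to 234), against 277 over all listed regions, and 274 at day 5, close to the 274 of all listed regions on that day. Since a gain requires a lower start, the day 0 value is partly set by the selection. Over input the regions were not lower. The deposited day 0 enrichment, which has the day 5 inputs as background, had a median of 2.16 with chromosome 14 included, against 2.08 over all listed regions. The 5 lowest levels, between 93.8 and 101 normalised reads per kb at day 0, all belonged to regions already named among the 10 largest gains, on chromosomes 12, 1, 14, 11 and 8.

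At the other end, the 5 of the 1453 regions with the most reads per kb in watered plants held between 479 and 685 normalised reads per kb. They were only modestly higher at day 5. The highest was chr14:7768601-7769600, with 807 and 857 normalised reads at day 5 and 663 and 708 at day 0 (1.21-fold). On chromosome 4, chr4:21000301-21002200 held 1154 and 1215 normalised reads after 5 days and 988 and 926 before, the largest day 0 mean of the 1453, at 957 ± 44.4 (SD, n = 2). On chromosome 2, chr2:4689601-4690700 held 631 and 650 at day 5 and 507 and 545 at day 0 (1.22-fold).

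Another region with many reads per kb, chr1:4315101-4316100, held 546 and 703 normalised reads at day 5 and 460 and 497 at day 0 (log2 0.38), a difference carried mostly by day 5 replicate 2. In chr1:11301001-11302000, with 614 and 645 against 535 and 513 (log2 0.26), the gain bordered on a loss. A day 5 region that shares 200 bp with it, chr1:11301801-11302900, held 516 and 474 normalised reads at day 5 and 552 and 514 at day 0. Of the 1453 regions, 9 (0.619%) shared bases with another day 5 region, as did 321 of all 10605 regions listed at day 5. The neighbours of the 9 were all listed as lost. Passing windows are merged into regions, so overlapping gains would probably have been joined, and the direction of these neighbours is no finding.

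Enrichment of H3K9ac over input, averaged geometrically over the days, had a median of 2.24 in the 1379 regions off chromosome 14, against 1.92 over all listed regions off it. With chromosome 14 included, 893 of 1453 regions (61.5%) had an enrichment of at least 2, against 44.1% of all listed regions, and 286 (19.7%) had at least 3. In 21 regions it was under 1, so that normalised H3K9ac reads were below those of the input there. Enrichment was part of the selection only at its lowest end, but it holds the reads that chose the regions. The median ratio was 1.49 in those 21 regions, 1.39 at an enrichment of 1 to 2, 1.37 at 2 to 3 and 1.39 at 3 or more. With all chromosomes included, the median log2 difference after subtraction of the input change was 0.31, 0.50, 0.66 and 0.78 in the same classes, and the inputs enter both measures.

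The input DNA, which the selection used only within the enrichment, was lower at day 5 in most of the regions. Relative to the median listed region off chromosome 14, the median log2 change of the input from day 0 to day 5 was -0.15 in the 1379 regions (interquartile range -0.36 to 0.06), and was lower in 952 of them (69.0%). After the input change was subtracted, the median log2 difference of H3K9ac was 0.64, compared with 0.47 before, and it was at or under 0 in 65 regions (4.71%). The deposited inputs have no value per library, so these differences have no replicate error and no test. In the 74 regions of chromosome 14 the same calculation gave median log2 values of -0.58 for the input and 1.01 for adjusted H3K9ac, while the unadjusted median was 0.43.

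The extremes of the input show where the adjustment matters. In chr11:11616201-11617200 H3K9ac was 309 and 330 normalised reads at day 5 and 240 and 241 at day 0, but the input was higher by 0.93 on the log2 scale, which left a difference of -0.52. In chr12:12553901-12554900, 406 and 396 stood against 346 and 307, and an input higher by 0.93 left -0.63. The second largest gain, chr6:3852101-3854100, had an input higher by 0.91, and of its log2 difference of 1.23 only 0.33 was left.

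Lower inputs gave the reverse picture. In chr12:12646401-12647400, with 267 and 285 normalised reads at day 5 and 206 and 220 at day 0, the input was lower by 1.11 (log2 change -1.11). In chr18:3265801-3266800, with 226 and 239 against 138 and 149, it changed by -0.96. The 3 lowest input changes of all 1453 regions, between -2.65 and -1.90 relative to all listed regions, lay on chromosome 14, at chr14:6822701-6823800, chr14:7852701-7853700 and chr14:7344501-7345900.

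**Figure D2:**
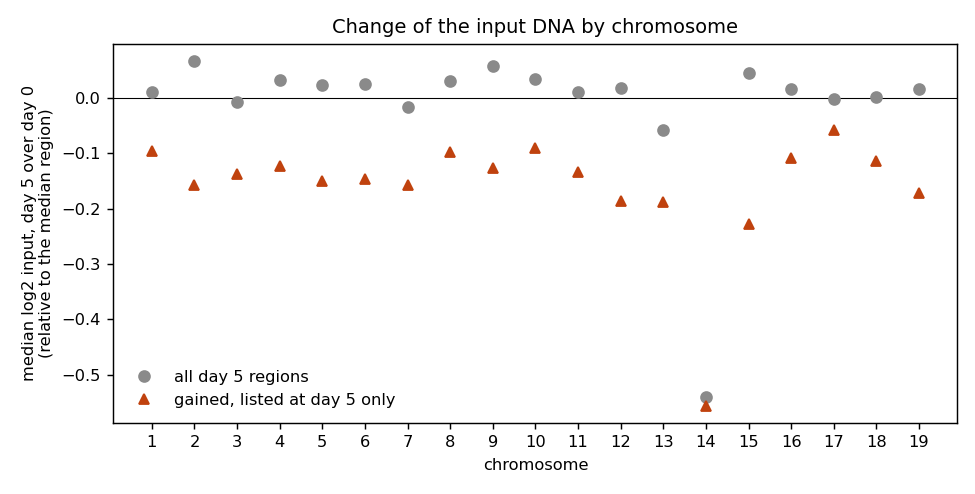
Median log2 change of the input DNA from day 0 to day 5, relative to the median listed region (y axis), on the 19 chromosomes (x axis), for all day 5 regions (circles) and for the gained regions listed at day 5 only (triangles). Chromosome 14 stands apart at -0.54 and -0.56, and elsewhere the triangles lie between -0.23 and -0.06, below the circles of the same chromosome.

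The regions were short. Their median length was 1100 bp, and 537 (37.0%) were 1000 bp long, the length of a single test window, against 30.5% of all listed regions. Only 75 (5.16%) were 2000 bp or longer. In the 916 longer than a single window, the best window given by the authors lay flush with an edge of the region in 557 (60.8%). With steps of 100 bp, every window of a 1100 bp region is flush with an edge, so length partly sets this share. The deposited log2 change of the best window was above that of the whole region in 612 (66.8%) and not above it in the others, so it was not always the window of largest change. Over all 1453 regions this change of the best window had a median of 0.49 and reached 1.67 in chr14:8089601-8090900, where the window covered the first 1000 bp.

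Which regions of 1000 bp were listed depended on read level in steps. At day 5, where the mean normalised reads of day 5 and day 0 summed to between 380 and 460, no listed region of 1000 bp changed by less than 0.45 on the log2 scale, and 5.28% of the 379 had a deposited p under 1e-08. Between 460 and 500, 1133 regions were listed with changes down to 0.14, and 91.8% had a deposited p under 1e-08. Between 520 and 540 the smallest change of the 58 listed was 0.34, and between 540 and 560, with 154 listed, it was 0.24. Between 600 and 640 the smallest change was 0.40 again, and between 640 and 700 it was 0.01.

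The selected regions followed these steps. Of the 537 of 1000 bp, 272 (50.7%) had a log2 difference under the 0.45 that bounds the lower reads, and 215 of these lay at sums of 460 to 580. Those with a deposited p under 1e-08 had the smaller gains, with a median ratio of 1.26 in 243 regions, against 1.42 in the others. The same held over all 1453 regions, at 1.31 in the 584 with such a p and 1.41 in the other 869. The deposited p is thus no ranking of the gain, and chr2:3273001-3274000, with 270 and 263 normalised reads at day 5 against 234 and 210 at day 0 (log2 0.26), had a deposited adjusted p as small as that of chr11:12956001-12957100 with its 2.23-fold gain, 7.90e-10.

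In the day 7 table some of the steps lay at other levels of normalised reads. Sums of 400 to 420 held 84 regions of 1000 bp with no change under 0.48. Sums of 420 to 440 held 1173 with changes down to 0.10, and sums of 540 to 580 again held none under 0.42. Sums of 460 to 500 held small changes on both days, down to 0.14 at day 5 and 0.09 at day 7. Of the 537 selected regions of 1000 bp, 174 lay at these sums. The day 0 libraries were divided by constants of 1.02 and 1.04 in the day 5 table and 1.11 and 1.13 in the day 7 table, so equal reads have other values in each. So at a given level of normalised reads the smallest change listed differed between the days. Whether the steps also differ in reads before division by the constants was not tested. No day 7 value is given for regions outside the day 7 table. Absence from that table therefore does not show that the gain was gone at day 7, and how many of the 1453 owe their place to the steps was not tested.

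**Figure D3:**
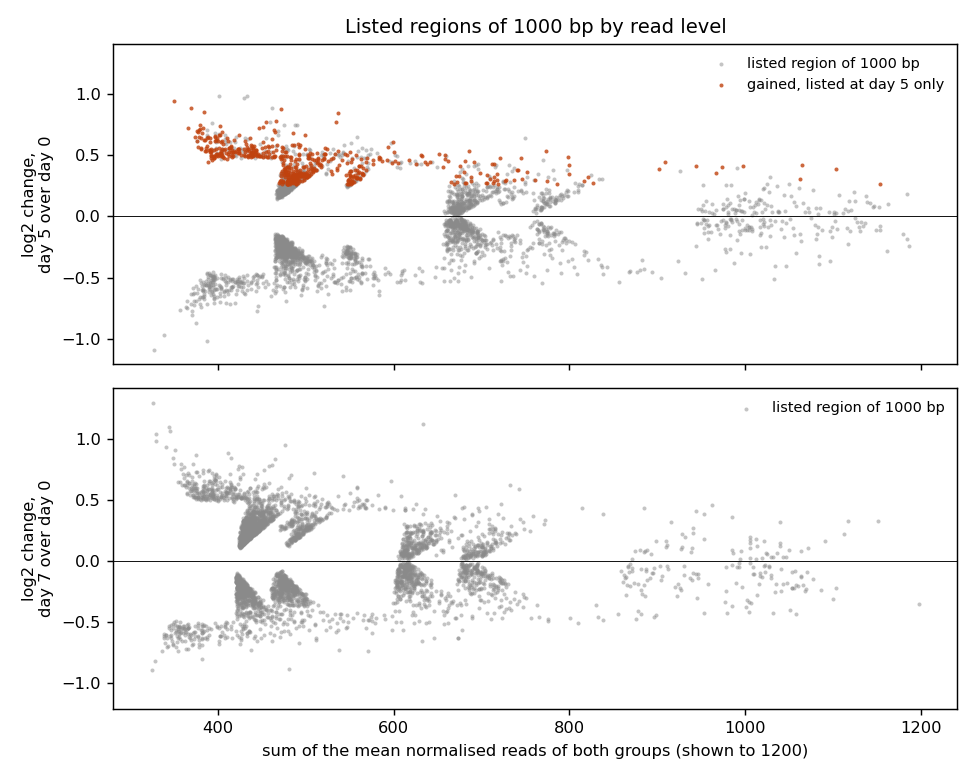
Log2 change over day 0 (y axis) against the sum of the mean normalised reads of both groups (x axis, to 1200) for listed regions of 1000 bp at day 5 (top) and day 7 (bottom). Red points are gained regions listed at day 5 only and grey points all others. Among other levels, dense wedges of smaller changes begin near 460, 540 and 640 at day 5 and near 420, 460 and 600 at day 7.

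The regions were compared with the 1825 day 5 regions that met the same conditions but shared a base with a day 7 region. Together these made 3278 gained regions, of which 44.3% were listed at day 5 only. The regions listed at day 5 only were shorter, with a median of 1100 bp against 1600 bp, and held fewer reads per region, with a median of 244 against 339 normalised reads at day 0 and 332 against 485 at day 5. Of the gained regions of 1000 bp, 64.8% were listed at day 5 only, of those of 1300 to 1500 bp 48.5%, and of those of 2000 to 2900 bp 13.1%. A longer region has more bases that can be shared, so this decline is partly built into the comparison.

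By size of gain the share was level up to a ratio of 1.5. The share listed at day 5 only was 47.8% at ratios of 1.2 to 1.3, 47.9% at 1.4 to 1.5, and then 37.7% and 19.7% in the higher classes of the plot of shares by length and ratio. Within regions of 1000 bp, where length is fixed, it was 62.3% at ratios under 1.4 and 68.9% at 1.4 or more, and within 2000 to 2900 bp it was 15.7% and 12.1%. Median ratios were close, at 1.38 for the regions listed at day 5 only and 1.41 for those shared with day 7, but a ratio of at least 2 was reached by 12 (0.826%) of the former and 41 (2.25%) of the latter.

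Per kb the medians lay closer together than per region. Day 0 levels had a median of 206 normalised reads per kb in the regions listed at day 5 only and 216 in those shared with day 7, and day 5 levels a median of 274 and 302. Enrichments off chromosome 14 had a median of 2.24 and 2.19. The median log2 input change was -0.15 and -0.11, and the input-adjusted difference was 0.64 and 0.63. No test of these differences was made, since regions of the same libraries are not replicates.

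**Figure D4:**
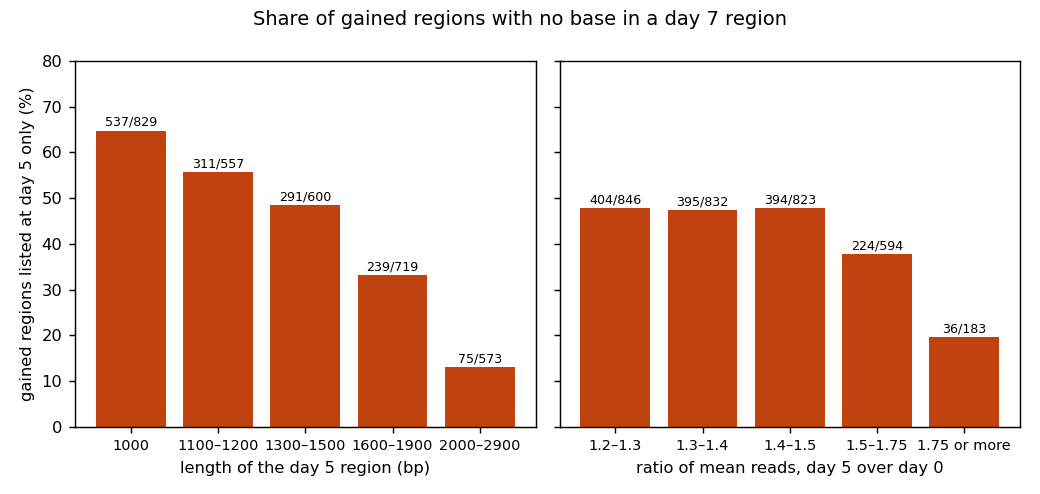
Percentage of the gained day 5 regions that share no base with a day 7 region (y axis), by length of the region (left, bp) and by ratio of mean reads (right). Numbers above the bars give regions listed at day 5 only over all gained regions of the class, and the percentage declines from 64.8% to 13.1% with length and is between 47.5% and 47.9% at ratios under 1.5.

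The regions lay on all 19 chromosomes and on scaffold 20. Per Mb up to the last listed base they numbered from 2.27 on chromosome 19 to 4.88 on chromosome 9 among the 19 chromosomes, and 6.42 on scaffold 20, which held only 6. Listed regions of any kind also differed in density. The selected regions were 14.1% of all day 5 regions on chromosome 19 and 11.9% on chromosome 9, against 13.7% of the whole day 5 listing. Among the 19 chromosomes this share ran from 11.2% on chromosome 8 to 17.2% on chromosome 17. Chromosome 1 held the most, at 196. Among the 19 chromosomes the share of gained regions listed at day 5 only ran from 37.6% on chromosome 8 (85 of 226) to 53.9% on chromosomes 13 and 15 (55 of 102 each), and on scaffold 20 it was 66.7% (6 of 9). The median log2 difference of the selected regions stayed between 0.42 and 0.53 on every one of the 19.

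Few of the regions formed groups. The nearest other selected region was a median of 70200 bp away, and 113 regions (7.78%) had one within 5 kb. There were 47 pairs, 5 runs of 3 and 1 run of 4 with gaps of at most 5 kb. The run of 4 lay on chromosome 10, and its first and strongest region, chr10:20700401-20702100, held 348 and 426 normalised reads at day 5 and 210 and 196 at day 0 (1.91-fold). The third, chr10:20705501-20707400, held 472 and 451 against 279 and 284 (1.64-fold).

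The other members of that run were weaker. The region chr10:20704101-20705100 held 225 and 234 normalised reads at day 5 against 152 and 173 at day 0 (1.41-fold), and chr10:20708301-20709600 held 290 and 310 against 196 and 183 (1.58-fold). Day 7 listed a region 700 bp before the run, chr10:20697801-20699700, where libraries held 282 and 240 normalised reads, below the 473 and 405 of day 0 (0.595-fold). A gain at day 5 and a loss at day 7 thus stood side by side, with day 0 libraries common to both comparisons.

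Other listed day 5 regions were often near. The closest one lay within 5 kb, without shared bases, for 438 regions (30.1%). It was listed as gained for 301 of them (68.7%), against 47.1% of all regions in the day 5 table, and in 170 it was a gained region that shared a base with a day 7 region. This measure comes from the same libraries as the selection and is a description.

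The largest gain lay between other gained regions, and the closer of them was also listed at day 5 only. A gained region of 4000 bp, chr14:8085401-8089400, ended 200 bp before it, with 1932 and 2239 normalised reads at day 5 against 782 and 778 at day 0 (2.67-fold). Day 7 listed chr14:8085501-8089200 in its place, with 1745 and 1823 against 711 and 690 (2.55-fold). On the other side, 100 bp on, chr14:8091001-8092100 was also listed at day 5 only, with 301 and 263 normalised reads against 190 and 202 (1.44-fold). The day 7 listing thus ended 400 bp before the stretch that made up the largest gain.

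**Figure D5:**
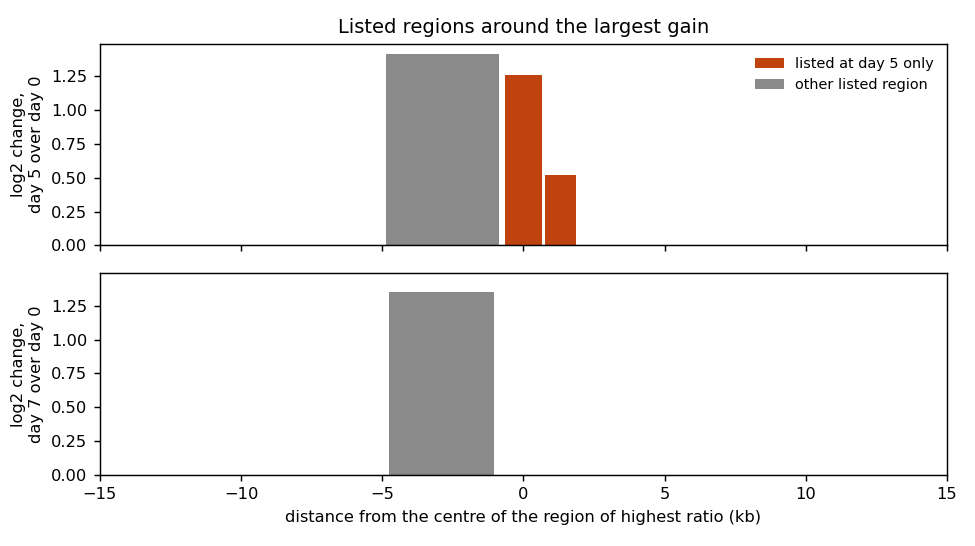
Log2 change over day 0 (y axis) of listed regions at day 5 (top) and day 7 (bottom) within 15 kb of the centre of the region of highest ratio (x axis, kb). The grey region with log2 changes of 1.42 and 1.35 was listed on both days, and the red regions beside it, at 1.26 and 0.52, at day 5 only.

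The nearest day 7 region was a median of 9300 bp away (interquartile range 3800 to 21100 bp). It lay within 1000 bp for 130 regions (8.95%) and within 10000 bp for 767 (52.8%), and 14 regions touched one. Of the touching regions the 5 with the highest ratios had neighbours of every kind, and the day 0 libraries are shared between the comparisons. The region chr17:12192301-12193800, with 291 and 323 normalised reads at day 5 against 205 and 202 at day 0, adjoined the day 7 region chr17:12193801-12195100, with 266 and 330 against 178 and 168.

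In chr10:15747401-15748400, 245 and 237 normalised reads at day 5 stood against 177 and 152, beside a day 7 region with 285 and 287 against 227 and 225. Next to lost day 7 regions lay chr5:6529401-6531100, with 326 and 349 against 193 and 236, where the neighbour held 321 and 314 at day 7 against 396 and 392 at day 0. The same order held at chr5:3539601-3540800, with 370 and 369 against 219 and 271 at day 5, beside 223 and 200 against 251 and 253 at day 7. In chr14:7614101-7615100, 233 and 238 stood against 162 and 170, and the day 7 neighbour was nearly level, at 300 and 328 against 292 and 318.

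Others were isolated. In 37 regions (2.55%) no day 7 region lay within 100000 bp. The farthest was chr1:45734801-45735900, 782200 bp from any, with 391 and 473 normalised reads at day 5 against 330 and 329 at day 0. On chromosome 17, chr17:7017601-7019100 held 356 and 383 against 242 and 280, and chr17:6937401-6939000, 78600 bp from it, held 465 and 487 against 306 and 377.

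On chromosome 19, chr19:6094001-6095300 held 293 and 289 normalised reads at day 5 against 161 and 236 at day 0, and on chromosome 12, chr12:7278401-7279500 held 482 and 476 against 389 and 359. Their ratios, and those of the 3 regions before, ran from 1.28 to 1.46, within the range of the bulk of the regions. Of these 5, the regions on chromosomes 1 and 12 had input-adjusted log2 differences of -0.01 and -0.11, computed relative to all listed regions, because their inputs were higher at day 5.

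The conditions of the selection lay within the bulk of the values for the ratio and near an end for the others. Of the 2123 regions listed as gained at day 5 with no base shared with day 7, 603 missed the ratio of 1.2, 60 the separation of the libraries, 59 the enrichment and 11 the length. Just inside the ratio stood chr2:3273001-3274000 (1.20003) and chr10:18210501-18211500 (1.20027), and just outside it chr4:16374901-16375900 (1.19992) and chr8:1295601-1296900 (1.19974). The longest kept region, chr10:20172901-20175800, was 2900 bp long (1.36-fold), and chr12:13950401-13953400, at 3000 bp, was left out despite a ratio of 2.17.

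Just inside the enrichment of 0.5 stood chr3:15836901-15838400 at 0.506, and just outside chr18:1260501-1261600 at 0.475. At the separation of libraries, chr18:1688001-1689200 was left out because its lower day 5 library, at 285 normalised reads, fell below the higher day 0 library, at 290, although the other day 5 library held 458.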

How the data were processed

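The deposited tables were made with diffReps 1.55.4, per the file headers, which tests windows (1000 bp long, in steps of 100 bp) with a negative binomial model and merges those with p under 0.0001. The submitters' processing notes name Bowtie; neither its version nor the genome build was stated in the labels or headers. The deposited read columns, per the file headers, hold 2 normalised values per cell, 1 per library, the deposited signal columns their mean, the deposited ratio columns the enrichment over background, the deposited log2 columns the change over day 0, and the deposited p-value columns the region and window p and their Benjamini-Hochberg adjustment over 59188 tests at day 5. Per the file headers, each group was given the inputs of the other as its background, and inputs were read accordingly. The gene table at hand is of another assembly and no genome was used here, so no gene or sequence is given.

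Chromosome names differ between the tables and were matched by number (chromosomes 1 to 19 and numbered scaffolds). Day 0 reads were identical in all 593 regions of identical coordinates. Normalised values times a constant fitted near that in the header were whole within 0.1 in 100% of regions. These reads within the 1453 regions came to 634264 and 448914 at day 5 and to 401633 and 417104 at day 0, with a smallest value of 107 in a region, and are not library depths. Since the read columns are normalised, the planned count models were not fitted. The log2 normalised reads of all 10605 regions, without a pseudocount, were fitted with limma 3.58.1 (R 4.3.3, variance trend on, Benjamini-Hochberg adjusted p). The code was tested on simulated reads in which most regions did not change, whereas limma called 8884 of the listed regions. That test does not show how the fit behaves on regions already listed for a small p. Printed SEs are from limma. No region was named for its gene: named were the 10 highest ratios, the 5 highest and lowest day 0 levels, the 5 nearest to and farthest from a day 7 region, the 3 extreme input changes (also off chromosome 14, added after the data were seen), the longest run and the values at each condition. The chromosome 14 and read-level descriptions, and regions adjoining named ones, were also chosen after values were seen. The regions and comparisons were chosen with earlier results of these data known.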

Additional observations from a re-analysis of the deposited data

How the results depend on the processing

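The number of regions stayed within 1.5 times of 1453 under 11 of 13 alternatives. It was 260 with a minimum ratio of 1.5 and 904 on reads not divided by the library constants, of which 902 were among the 1453, so that the number rests on the scaling and on the ratio. Leaving out each library in turn, with the other library of its group standing for both, gave 1416 to 1465 regions. The listed regions stayed the same and the separation of the libraries could only loosen. These counts therefore say little about the stability of the number. The median log2 difference moved by less than the spread between replicates under all 8 alternatives, and was between 0.41 and 0.48 without each library. Of the 1453 regions, limma called 1452, and 1449 with the replicate block (8739 against 8884 calls over all regions). The replicate numbers are shared by only 2 pairs and are not known to mark pairs, and the deviations of same-numbered libraries correlated at 0.108 across regions. Without each library limma called 1082 to 1440 regions, with the 2 lowest counts, 1082 and 1172, when day 0 replicate 1 or 2 was left out. Each such fit has a single library on one side, which is assumed to vary like the other group, so these counts say little about the stability of the calls. The median input-adjusted difference of 0.63 was 0.87 without centring of the input, 0.64 without chromosome 14, and 0.59 to 0.65 without each library. Another selected region lay within 2 kb for 57 and within 10 kb for 197, against 113 within 5 kb. The distance to the nearest day 7 region kept within 1.5 times of 9300 bp. The edgeR and DESeq2 alternatives were not run. The alternatives without chromosome 14, without its enrichment condition, and without each library for the number of regions and the input-adjusted difference were chosen after seeing the data.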
